A study of Mus musculus with 8 samples.

Results

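The 10 genes described here encode the main apolipoproteins made by the liver (*Apoa1*, *Apoa2*, *Apoa4*, *Apoa5*, *Apob*, *Apoc1*, *Apoc2*, *Apoc3* and *Apoe*) and *Mttp*, the microsomal transfer protein that loads lipid onto APOB. They were chosen by name, and their probes were found through the transcript that each probe was designed on. They had 17 of the 56605 probes on the array, and all 10 genes and 17 probes passed the filter on dim probes. That filter kept 22834 of 45616 genes, where a transcript without a gene symbol was counted as a gene under its own identifier. The shares over all genes tested given below include such transcripts. RNA came from the livers of male C57BL/6 mice, 10 weeks old, of which 4 were *Agpat3* wild type (WT) and 4 were *Agpat3* knockout (KO). AGPAT3 is an enzyme that builds docosahexaenoic acid into phospholipids, and the KO is global, so *Agpat3* was absent from the gut and other organs as well as from hepatocytes. Each liver was hybridized to 1 one-color array, all 8 on 1 slide, with the WT mice on one row of the slide and the KO mice on the other, and genotype cannot be told apart from the row. The labels number the livers within a genotype without stating litters, and p-values measure the spread between these livers. The comparison asks whether the genes for the protein parts of lipoproteins differed between livers with and without *Agpat3*.

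Apolipoproteins coat the particles that carry triglyceride and cholesterol in blood. In hepatocytes, APOB is loaded with lipid by MTTP in the endoplasmic reticulum to form very low density lipoprotein (VLDL), whereas APOA1 and APOA2 form the frame of high density lipoprotein (HDL). The smaller apolipoproteins move between particles, where APOC2 and APOA5 promote and APOC1 and APOC3 restrain the use of the triglyceride, and APOE is the ligand by which liver receptors take up remnants.

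In the mouse genome, *Apoa1*, *Apoc3*, *Apoa4* and *Apoa5* lie together on one chromosome, and *Apoc2*, *Apoc1* and *Apoe* lie together on another. The 100 bases directly before the transcription start of *Apoa4*, the member with the largest change, are shown with those of its neighbors *Apoa1* and *Apoa5* and of *Apoc2*, from the RefSeq annotation of GRCm38.p6. Capitals mark a TATA box (TATAAA) or an E-box (CACGTG), the target of several lipid-regulating factors.
*Apoa4* (chr9:46240744-46240843, plus strand): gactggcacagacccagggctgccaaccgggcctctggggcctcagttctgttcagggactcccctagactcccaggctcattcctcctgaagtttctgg
*Apoa1* (chr9:46228530-46228629, plus strand): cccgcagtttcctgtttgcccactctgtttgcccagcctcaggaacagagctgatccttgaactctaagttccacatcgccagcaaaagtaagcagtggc
*Apoa5* (chr9:46268508-46268607, plus strand): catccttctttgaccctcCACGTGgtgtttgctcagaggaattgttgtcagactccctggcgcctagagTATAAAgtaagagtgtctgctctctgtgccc
*Apoc2* (chr7:19677942-19678041, minus strand): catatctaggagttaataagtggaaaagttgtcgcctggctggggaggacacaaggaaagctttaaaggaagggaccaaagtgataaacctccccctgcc
The 250 bases before the start were searched on both strands for 7 motifs in the 8 members listed in that table, which does not include *Apoc1* and *Apoc3*. Where a gene had several starts, only the one farthest upstream was used. This applies to *Apoe*, with 3 starts, and to *Apoa2* and *Apoa5*, with 2 each. The motifs, none of which contains another, were the TATA box, the E-box, a nuclear receptor half-site (AGGTCA), an HNF4 motif (CAAAGTCCA), a cAMP response element (TGACGTCA), a sterol regulatory element (CACCCCAC) and a CCAAT box (CCAAT). None of the 7 motifs was present in the windows of *Apoa4*, *Apoa1*, *Apoe* or *Mttp*. *Apoa5* had TATAAA 31 to 26 bases and CACGTG 82 to 77 bases before its start, and *Apob* had TATAAA 60 to 55 bases before its start. *Apoc2* had AGGTCA 115 to 110 bases before its start, and *Apoa2* had AGGTCA at 238 to 233 and CCAAT at 128 to 124, both on the opposite strand. Over all 32851 promoter windows, TATAAA was present in 12.4%, CACGTG in 6.02%, AGGTCA in 4607 windows, CCAAT in 33.8%, CACCCCAC in 2.58%, TGACGTCA in 1.55% and CAAAGTCCA in 0.384%. These matches are descriptions of the letters and not binding sites.

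Signals are given as log2 of the processed fluorescence over its 75th percentile on the same array, so that 1 unit is a doubling, and a gene is read from its brightest probe. A change was called where it exceeded 1.5-fold with an adjusted p below 0.2 (limma, Benjamini-Hochberg over 29069 probes). The labels were checked with *Agpat3* itself, whose signal was 5.65, 5.66, 5.80 and 5.88 in WT livers and -0.48, 0.02, -0.58 and -0.47 in KO livers (log2 fold change -6.12, limma adjusted p = 4.46e-07). Correlations of the log2 signals were between 0.988 and 0.996 within a genotype and between 0.985 and 0.992 across genotypes. No spot was saturated on any array. The 7 hepatocyte markers tested were not called, with *Alb*, the brightest, at 10.5 ± 0.09 in WT and 10.5 ± 0.08 in KO livers (SD, n = 4).

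Among the 10 genes, *Apoa4* rose 2.72-fold in KO liver, and no other member was called. *Apoc2* was 1.28-fold higher but did not reach the minimum fold, and the estimates of the other 8 members lay between -0.12 and 0.13 on the log2 scale. The 1 member called higher of 10 stands beside 0.985% of all genes tested that were called higher, and the 0 members called lower beside 0.775%. At an unadjusted p under 0.05 in limma, 2 members were higher and 0 lower, beside 1224 and 1858 of all 22834 genes tested. An unpaired t test with the same thresholds called the same counts as limma, 1 higher and 0 lower. Over all genes tested, that t test called 129 higher and 83 lower. The median log2 fold change of the members was -0.02, beside -0.03 over all genes tested.

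**Figure D1:**
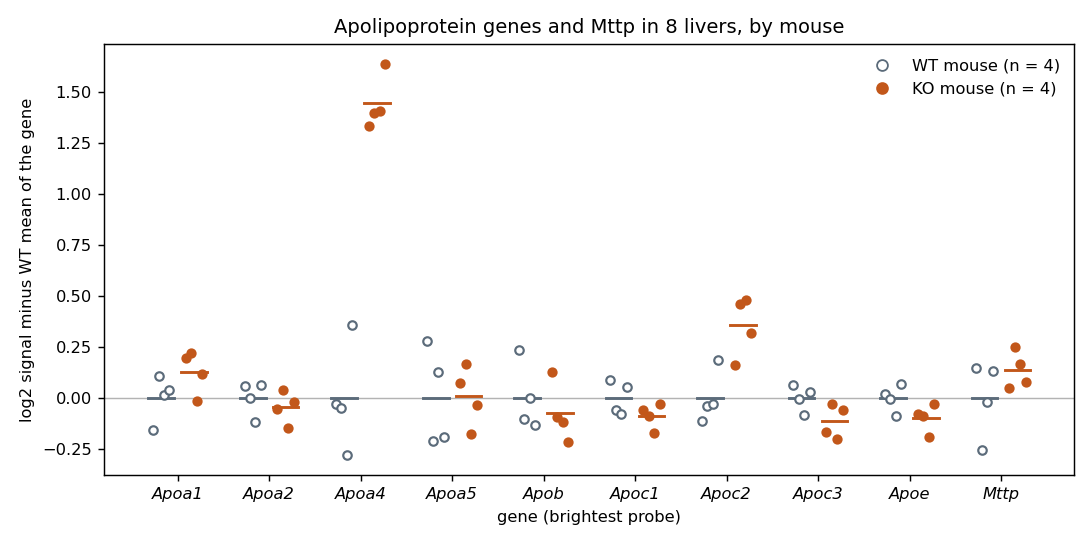
Log2 signal of the brightest probe of each of the 10 genes in every liver, minus the WT mean of that gene (open circles, 4 WT mice; filled circles, 4 KO mice; bars, means). The 4 KO livers lie above all WT livers for *Apoa4* only, and WT and KO livers overlap for the other 9 genes.

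*Apoa4* encodes a lipid-induced apolipoprotein that is made in gut and, in mice, in liver, and that travels on triglyceride-rich particles and HDL. Its log2 signal was 3.91, 3.89, 3.66 and 4.29 in WT livers and 5.27, 5.33, 5.34 and 5.58 in KO livers. The lowest KO liver was above the highest WT liver, and the KO livers were closer to each other (SD 0.13) than the WT livers (SD 0.26). Before scaling, this single probe had intensities from 3892 to 5129 in WT and from 11158 to 13200 in KO livers. The log2 fold change was 1.44 (SE 0.14, 95% interval 1.13 to 1.76), a 2.72-fold difference with an interval from 2.19 to 3.38 (limma adjusted p = 0.00666). The exact two-sided permutation p over all 70 assignments was 0.0286, the smallest that 4 against 4 mice allow. Genotypes that did not overlap were found for 1 of 10 members, beside 9.05% of all genes tested. Since whole liver was measured, more cells that make a transcript and more RNA per cell cannot be told apart.

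Because *Apoa4* is also a gut gene, enterocyte markers were set beside it. Of 8 such markers, *Sis*, *Lct*, *Alpi*, *Cdx1* and *Cdx2* were above background on 0 of 8 arrays, and the other 3 were tested. *Fabp2*, an intestinal fatty acid binding protein that liver also expresses, was the brightest and was called higher. Its log2 signal was 5.92, 5.92, 5.84 and 5.46 in WT and 6.81, 6.85, 6.63 and 6.84 in KO livers, without overlap (log2 fold change 0.99, SE 0.12, limma adjusted p = 0.0152). The summed linear signal of the 3 markers was 48.8 to 63.6 times the 75th percentile in WT and 102 to 118 times in KO livers. Most of this sum was *Fabp2* itself, with a mean log2 signal of 5.79 in WT livers, beside 1.8 for *Lgals4* and -3.70 for *Vil1*. The sum thus repeats the rise of *Fabp2*. The other 2 markers tested, *Vil1* and *Lgals4*, were not called (log2 differences 0.26 and -0.17). *Vil1* was above background in 3 of 4 WT and 4 of 4 KO livers, and so passed the filter through the KO livers only. *Fabp2* was thus the one enterocyte marker called with *Apoa4*, while 5 of the 8 were at background.

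Other cell types of the liver were read in the same way. Of 12 Kupffer cell and macrophage markers, 1 was called, with *Marco*, a scavenger receptor, lower in KO livers (log2 fold change -1.22, limma adjusted p = 0.0983), and the brightest, *Cd5l*, changed by -0.07. The summed signal of these 12 markers was 112 to 184 in WT and 95.1 to 157 in KO livers, in units of the 75th percentile. None of the tested markers of stellate cells (9), sinusoidal endothelial cells (7), cholangiocytes (3) or pancreatic acinar cells (6) was called. At an unadjusted p under 0.05 in limma, 1 of them was higher and 4 were lower, beside 1224 and 1858 of all 22834 genes tested. The unpaired t test called 0 of these markers. Their brightest genes differed by -0.11 (*Dcn*), 0.02 (*Clec4g*), -0.14 (*Spp1*) and -0.54 (*Cela1*) on the log2 scale. Summed signals overlapped between WT and KO livers in each of these 4 lists, at 99.9 to 134 and 97.4 to 104 for stellate, 87.3 to 89.3 and 79.2 to 93.6 for endothelial, 5.43 to 9.56 and 5.50 to 7.99 for cholangiocyte and 44.0 to 56.7 and 28.6 to 44.2 for acinar markers. The acinar ranges barely overlapped. *Cela1* made up most of the acinar sum, and its 4 KO livers lay below all WT livers (limma adjusted p = 0.292). The acinar markers *Cpa1*, *Cpb1*, *Pnlip* and *Prss1* were above background on 0 of 8 arrays. The part of any of these markers in the change of *Apoa4* was not tested.

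*Apoc2* encodes the cofactor that lipoprotein lipase needs to release fatty acids from triglyceride. Its brighter probe read 7.41, 7.48, 7.49 and 7.71 in WT and 7.69, 7.99, 8.01 and 7.85 in KO livers. Only the highest WT liver and the lowest KO liver overlapped. The other probe gave 5.98, 6.03, 6.09 and 6.34 in WT and 6.32, 6.65, 6.62 and 6.48 in KO livers, and the same pair of livers overlapped. The log2 fold change was 0.36 (SE 0.10, 95% interval 0.13 to 0.58) at the brighter probe, a 1.28-fold difference (limma adjusted p = 0.188, exact permutation p = 0.0571), and 0.41 (SE 0.11) at the other (limma adjusted p = 0.163, exact permutation p = 0.0571). The adjusted p was thus under the threshold and the fold change below the minimum. With an adjusted p under 0.2 and no minimum fold, 2 of 10 members passed, *Apoa4* and *Apoc2*, beside 4.22% of all genes tested. Its adjusted p ranged from 0.0653 to 0.434 over the settings tried, so the difference of *Apoc2* did not hold its side of the threshold in all of them.

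The structural protein of VLDL and its loading enzyme did not pass the test. *Apob*, which cannot leave its particle, read 8.20, 7.86, 7.96 and 7.83 in WT and 8.09, 7.87, 7.85 and 7.75 in KO livers. The genotypes overlapped throughout, and the log2 difference was -0.08 (95% interval -0.32 to 0.17, limma adjusted p = 0.816), with -0.10 at the other probe. *Mttp*, read by 1 probe, was at 3.76, 3.36, 3.60 and 3.75 in WT and 3.67, 3.86, 3.79 and 3.69 in KO livers. It differed by 0.13 on the log2 scale (95% interval -0.10 to 0.37, limma adjusted p = 0.633).

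The HDL proteins likewise did not pass. *Apoa1*, the activator of cholesterol esterification, read 8.16, 8.42, 8.33 and 8.35 in WT and 8.51, 8.53, 8.30 and 8.43 in KO livers, with overlap (log2 difference 0.13, 95% interval -0.07 to 0.32, limma adjusted p = 0.574). *Apoa2* read 10.32, 10.26, 10.14 and 10.33 in WT and 10.21, 10.30, 10.11 and 10.24 in KO livers. Its log2 difference was -0.05 at both probes (95% interval -0.21 to 0.12 at the brighter, limma adjusted p = 0.838), and it turned to 0.02 with quantile normalization.

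Among the remaining members, which act on lipases and clearance, the estimates were small and of both signs. *Apoa5* read 8.74, 8.26, 8.60 and 8.28 in WT and 8.54, 8.64, 8.29 and 8.43 in KO livers. Its brighter probe differed by 0.01 (95% interval -0.30 to 0.31, limma adjusted p = 0.988) and its other probe by 0.17 (limma adjusted p = 0.602), and centring on the median turned the first to -0.03. *Apoc3* read 9.96, 9.89, 9.81 and 9.92 in WT and 9.73, 9.87, 9.69 and 9.84 in KO livers. The KO livers lay toward the lower end, with log2 differences of -0.12, -0.14 and -0.21 at its 3 probes (95% interval of the brightest -0.28 to 0.05, limma adjusted p = 0.537), and the difference was 0.0042 with quantile normalization. *Apoc1* read 10.81, 10.66, 10.64 and 10.77 in WT and 10.66, 10.64, 10.55 and 10.69 in KO livers (log2 difference -0.09, 95% interval -0.25 to 0.07, limma adjusted p = 0.646). *Apoe* read 10.31, 10.28, 10.20 and 10.36 in WT and 10.21, 10.20, 10.09 and 10.26 in KO livers (log2 difference -0.10, 95% interval -0.25 to 0.06, limma adjusted p = 0.593), with -0.05 at the other probe. WT and KO livers overlapped for each of these 4 genes.

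For 9 of 10 members, all but *Apoa4*, the 95% interval at the brightest probe lay within 1.5-fold in either direction, beside 73% of all genes tested. At its other probe, the interval of *Apoc2* reached 0.66 on the log2 scale, which is above 1.5-fold. A p that misses the threshold does not show equal levels, and these intervals give the sizes that remain possible on this scale.

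**Figure D2:**
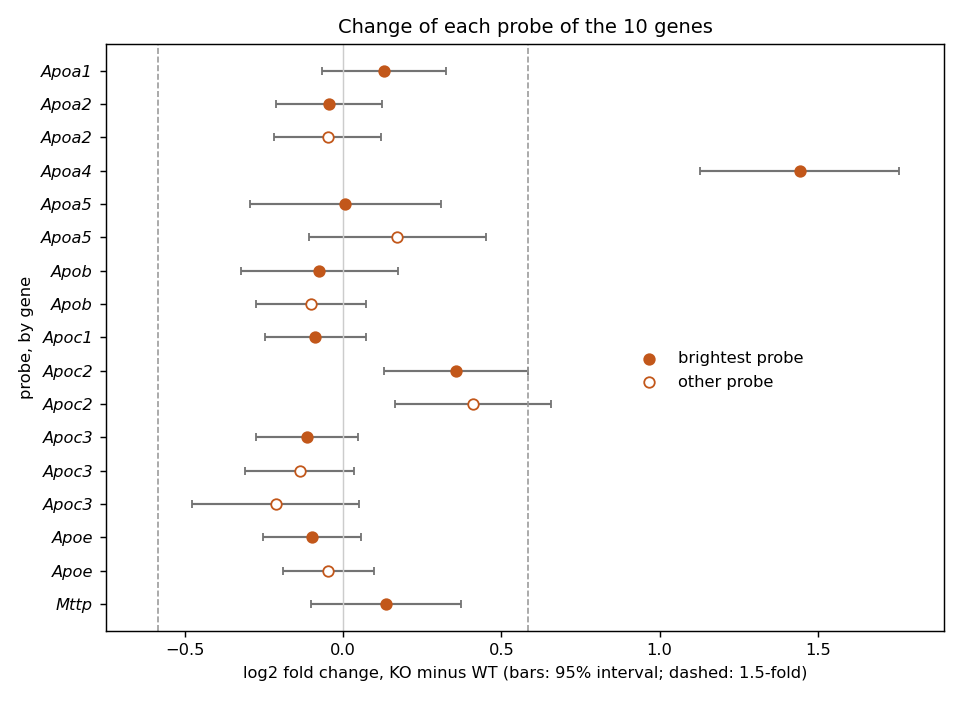
Log2 fold change (KO minus WT) with its 95% interval for each of the 17 probes (filled, brightest probe of the gene; open, other probes; dashed lines, 1.5-fold; 4 WT and 4 KO mice). The interval of *Apoa4* begins at 1.13, beyond the dashed line, and the interval of the dimmer *Apoc2* probe extends past it to 0.66.

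Several of the probes read at a large share of the ceiling of the scanner, which limits how much higher they could have read. The scanner saturates at a signal of 778680. The highest spot reading was 65.8% of that value for *Apoc1*, 55.4% for *Apoa2* and 54.7% for *Apoe*, against 1.49% for *Apoa4*. From their WT means, *Apoc1*, *Apoe* and *Apoa2* could have risen at most 1.62-fold, 1.87-fold and 1.88-fold before the scanner saturated, and the dimmer probes of *Apoe* and *Apoa2* 3.16-fold and 2.26-fold. Whether the signal was still proportional to RNA at this brightness was not tested.

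**Figure D3:**
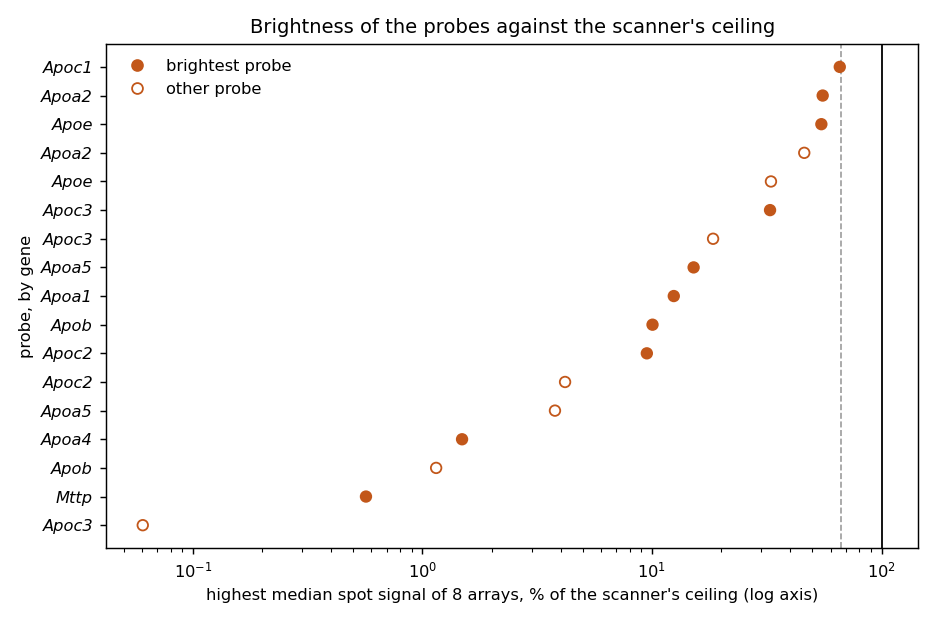
Highest median spot signal over the 8 arrays for each of the 17 probes, in percent of the value at which the scanner saturates, on a log axis (filled, brightest probe; open, other probes; solid line, saturation; dashed line, the level from which a 1.5-fold rise would reach it). *Apoc1* lies highest at 65.8% and *Apoa4* at 1.49%.

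To compare neighboring genes with the scaling of each array removed, the difference between 2 genes was taken within each mouse and the genotypes were then compared over 9 pairs. *Apoa4* rose against each gene of its cluster, by 1.31 on the log2 scale against *Apoa1* (SE 0.17, 95% interval 0.90 to 1.72), by 1.56 against *Apoc3* (SE 0.13, 95% interval 1.24 to 1.87) and by 1.44 against *Apoa5* (SE 0.25, 95% interval 0.83 to 2.04). The 4 KO livers were above all WT livers in these 3 pairs (exact permutation p = 0.0286, 0.0429 after Benjamini-Hochberg over the 9 pairs). These 3 pairs share *Apoa4* and are not independent of each other. *Apoa1* was also higher relative to *Apoc3* in KO livers, by 0.24 (SE 0.09, 95% interval 0.03 to 0.46, exact permutation p = 0.0286, adjusted 0.0429), although neither gene was called by itself. *Apoa1* against *Apoa5* gave 0.12 (95% interval -0.30 to 0.55, exact permutation p = 0.571, adjusted 0.643) and *Apoc3* against *Apoa5* gave -0.12 (95% interval -0.45 to 0.21, exact permutation p = 0.343, adjusted 0.441), and both pairs overlapped.

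In the other cluster, *Apoc2* was higher relative to *Apoe* by 0.45 (SE 0.11, 95% interval 0.18 to 0.73) and relative to *Apoc1* by 0.44 (SE 0.12, 95% interval 0.15 to 0.74), in both cases without overlap between WT and KO livers (exact permutation p = 0.0286, adjusted 0.0429). *Apoe* and *Apoc1* did not separate from each other, at -0.01 (95% interval -0.07 to 0.05, exact permutation p = 0.743, adjusted 0.743). The 2 pairs with *Apoc2* share that gene and are not independent of each other. Since 0.0286 is the smallest p this permutation test can give, its adjusted value depends on how many of the 9 pairs reach it. A difference within a mouse shows an unequal change of 2 genes and not which of them changed. How often pairs of other genes separate the genotypes was not tested.

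**Figure D4:**
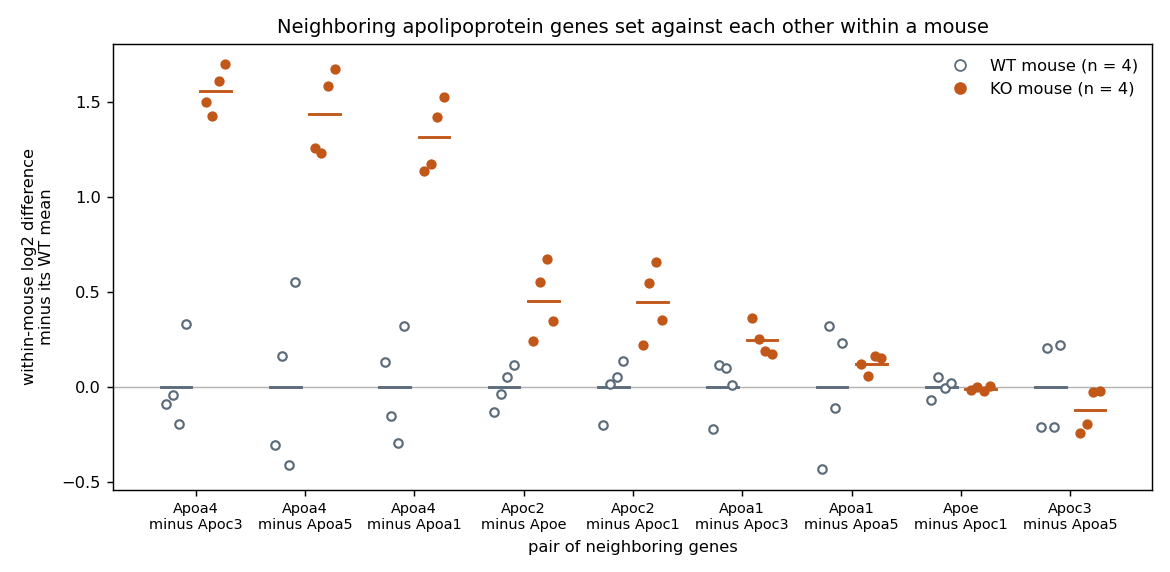
Log2 difference between 2 neighboring genes within each liver, minus its WT mean, for 9 pairs (open circles, 4 WT mice; filled circles, 4 KO mice; bars, means). KO livers lie above WT livers without overlap in the 6 pairs at the left and overlap with them in the 3 pairs at the right. *Apoa4* and *Apoc2* were always taken as the first gene of their pairs, which sets the direction shown. The share of such pairs among other genes was not tested.

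Genes that flank the clusters were not called. Beside *Apoa1*, the kinase gene *Sik3* differed by -0.14 (limma adjusted p = 0.467), with all KO livers below the WT livers. Beyond *Apoa5*, *Zpr1* differed by 0.09 and *Bud13* by -0.10 (limma adjusted p = 0.804 and 0.854). In the cluster of *Apoc2*, the differences were 0.02 for *Apoc4* (95% interval -0.13 to 0.16), -0.05 for *Clptm1*, 0.07 for *Tomm40* and -0.16 for *Nectin2*, with limma adjusted p between 0.652 and 0.935. The annotation also lists a transcript that runs through both *Apoc2* and *Apoc4*, and whether their probes read it was not tested.

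Livers also differed from each other within a genotype over the members as a group. The median deviation of the 10 members from their own genotype mean was highest in KO 2 (0.08, with 8 of 10 members above the mean) and lowest in KO 3 (-0.09, with 2 of 10). Among the WT livers it was 0.06 in WT 1 and WT 4, with 7 and 8 members above the mean, and -0.04 and -0.06 in WT 2 and WT 3, with 1 and 2. These shifts were smaller than the difference of *Apoa4* and similar in size to the estimates of the 8 members other than *Apoa4* and *Apoc2*.

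Over 22820 genes with values on all 8 arrays, the profiles most like that of *Apoa4*, each taken relative to its WT mean, were those of *Gpc1*, a cell-surface proteoglycan (root mean square difference 0.196 on the log2 scale), a transcript listed as AK053485 (0.206), *Pltp* (0.291), *Fasn*, the fatty acid synthase (0.292), and *Blnk*, a signaling adaptor (0.294). All 5 were called higher, with log2 fold changes between 1.37 and 1.69. Since the measure selects genes that differ between the genotypes as *Apoa4* does, these calls follow from the choice.

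Of 103 other genes of lipoprotein metabolism, 100 were tested, and 2 were called higher and 0 lower, beside 0.985% and 0.775% of all genes tested. At an unadjusted p under 0.05 in limma, 12 were higher and 3 lower, beside 1224 and 1858 of all 22834 genes tested. The unpaired t test called 1 higher and 0 lower, beside 129 and 83 of all genes tested. Their median log2 fold change was -0.0007.

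*Pltp*, which moves phospholipid between lipoproteins, rose 2.77-fold in KO liver. Its log2 signal was 0.82, 1.29, 0.87 and 0.88 in WT and 2.17, 2.44, 2.81 and 2.32 in KO livers (log2 fold change 1.47, SE 0.16, limma adjusted p = 0.0118). No value overlapped, although WT 2 stood above the other WT livers. *Srebf1*, which encodes the lipogenic factor SREBP1, read 6.08, 6.72, 6.63 and 6.14 in WT and 6.89, 6.87, 7.42 and 7.47 in KO livers (log2 fold change 0.77, SE 0.20, limma adjusted p = 0.168). KO livers lay above WT livers for both genes. Leaving out 1 mouse at a time, *Pltp* was called in all 8 fits and *Srebf1* in 0.

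By role, the list of assembly and secretion factors had 0 of 27 tested genes called, with log2 differences from -0.16 for *Mia3*, a cargo receptor of the endoplasmic reticulum, to 0.35 for *Ces1d*, a carboxylesterase (limma adjusted p = 0.351), and a median of 0.03. Of 17 other apolipoproteins tested, 0 were called, with a median of -0.05 and a range from -0.87 for *Saa2* to 0.32 for *Apol7a*. *Saa2*, an acute phase protein carried on HDL, varied from 5.69 to 8.70 among WT and from 5.36 to 7.63 among KO livers, a wider spread than its difference. *Apol6* and *Apol8* were above background on 0 of 8 arrays. At an unadjusted p under 0.05 in limma, 3 assembly genes were higher and 1 lower. Of the other apolipoproteins, 1 was higher and 1 lower at that threshold, beside 1224 and 1858 of all 22834 genes tested. The unpaired t test called 0 in both lists.

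Lipases and remodelling factors had 1 of 11 called, *Pltp*, also by the unpaired t test, and the lowest was *Furin*, a protease that cleaves lipase regulators, at -0.13. Of these 11, 2 were higher and 0 lower at an unadjusted p under 0.05 in limma, beside 1224 and 1858 of all 22834 genes tested. Receptors and clearance genes had 0 of 15 called, also by the unpaired t test. Of these 15, 3 were higher and 0 lower at an unadjusted p under 0.05 in limma, beside 1224 and 1858 of all 22834 genes tested. The highest was *Cd36*, a fatty acid and lipoprotein receptor, which read -0.04, 0.19, -0.07 and -0.25 in WT and 0.38, 0.71, 1.98 and 0.82 in KO livers, without overlap (log2 difference 1.01, SE 0.31, limma adjusted p = 0.220), and which was called with normexp background correction and without KO 3. The lowest of them was *Apobr*, an APOB48 receptor, at -0.19, while *Lrp8* was above background on 0 of 8 arrays. The 4 genes of efflux to HDL lay between -0.13 for *Abca7* and 0.06 for *Abca1*, the transporter that lipidates APOA1, and 0 were called, also by the unpaired t test and at an unadjusted p under 0.05 in limma. Transcription factors had 1 of 26 called, *Srebf1*, and 0 by the unpaired t test. Of these 26, 3 were higher and 1 lower at an unadjusted p under 0.05 in limma, beside 1224 and 1858 of all 22834 genes tested. The highest of these factors was *Esrrg*, a nuclear receptor, at 1.54 (SE 0.52, limma adjusted p = 0.261). It was above background in 3 of 4 WT livers and so passed the filter through the KO livers only. The lowest was *Foxa1*, a liver forkhead factor, at -0.39 (limma adjusted p = 0.618).

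**Figure D5:**
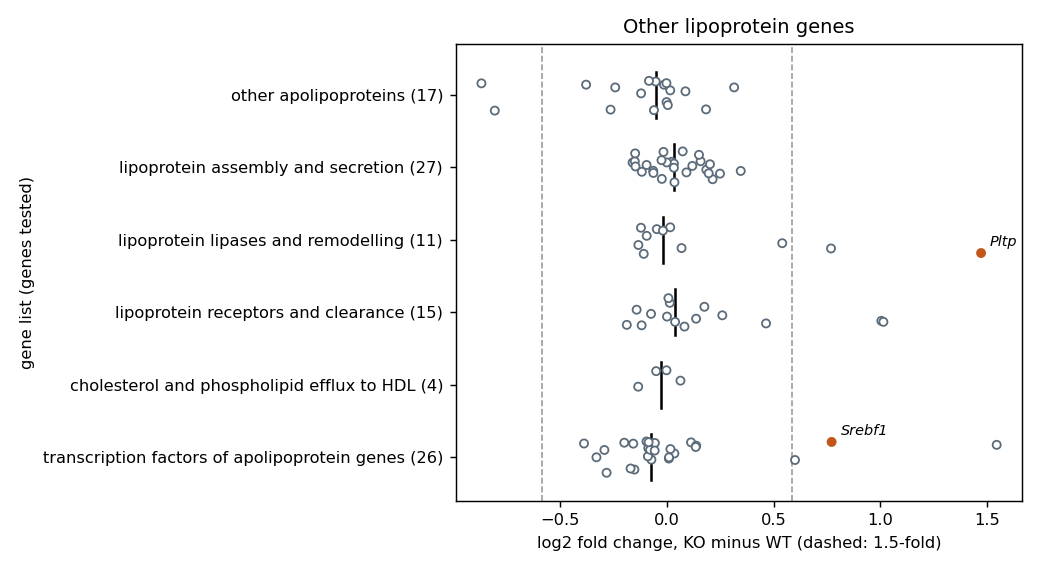
Log2 fold change (KO minus WT, 4 mice each) of 100 other lipoprotein genes by list, 1 point per gene (filled and named, called; open, not called; vertical bars, list medians; dashed lines, 1.5-fold). *Pltp* and *Srebf1* are the called genes, and the medians lie between -0.07 and 0.04.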

How the data were processed

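Liver RNA of 4 WT and 4 KO mice was measured on 8 one-color arrays. The authors deposited, per array, a scanner file (Feature Extraction 10.7.1.1) whose processed signal is a linear, background-corrected intensity. They also deposited a table of log2 values, which differed by at most 0.00849 from log2 intensity over the 75th percentile of each array among tested probes. Groups follow the genotype in the labels. Control and outlier spots were left out, and the log2 values of repeated spots were averaged. The 75th percentile of each array (261 to 309 as intensity) was then subtracted on the log2 scale. A probe was tested (29069 of 56605) if either genotype had it well above background in all 4 livers. KO was compared with WT in limma 3.58.1 (lmFit, eBayes, two-sided; R 4.3.3), with the thresholds of the study's legend, which does not state whether its p was adjusted. Exact permutation tests ran over all 70 assignments of mice. The fit was tested on simulated data. The number of arrays limits the precision.

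Symbols came from the RefSeq table of GRCm38.p6 through transcript accessions (32994 of 56605 probes). The scanner output names another build, so that table gave only names and gene order. One gene of the receptor list is not reported here. *Tf* is not listed under that symbol. Probes of related genes can share RNA, which was not tested.

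The members, the 13 gene lists and the tests were chosen with earlier results of these data known. The named genes were the members, *Agpat3*, the listed flanking genes, called genes and the highest and lowest of each lipoprotein list, called and brightest markers, and the 5 profiles nearest to the member with the largest change. Alternatives were normexp on the median spot signal (offset 50), quantile and median scaling, the deposited log2 values, other filters, outlier spots kept, a moderated fit with trend, a replicate block, averaging all probes per gene, an unpaired t test, other thresholds and leaving out each mouse.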

Additional observations from a re-analysis of the deposited data

Results flagged for a closer look

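Of 60 groups of 4 livers examined, 2 held a liver that lay far from the other 3, judged by the gap to its nearest neighbor as a share of the whole range, which chance gives in about 1 in 20 groups. *Pltp* read 1.29 in WT 2 and between 0.82 and 0.88 in the other WT livers. *Apobr* read -1.69 in KO 4 and between -2.01 and -1.98 in the other KO livers. None of the 10 members had such a liver.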

How the results depend on the processing

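*Apoa4* was called higher in every alternative with the planned thresholds (log2 fold change 1.35 to 1.56, adjusted p 0.00095 to 0.0573). The number of members called higher was 1 throughout, except 2 with no minimum fold (*Apoa4* and *Apoc2*), and the number called lower was 0. The log2 difference turned for *Apoa2* (0.0222) and *Apoc3* (0.0042) with quantile normalization and for *Apoa5* (-0.0304) with centring on the median. Over fits without one mouse each, it ranged from -0.0634 to 0.0994 for *Apoa5* and from -0.14 to 0.0032 for *Apob*. In the remaining 182 values for members, the direction and the call by fold and adjusted p together were kept. Among them, quantile normalization shrank the differences of *Apoc1* to -0.016, *Apoe* to -0.023 and *Apob* to -0.028. It enlarged those of *Apoa1* to 0.19 and *Apoc2* to 0.42. The adjusted p of *Apoc2* alone, 0.188 as reported, went above 0.2 with centring on the median (0.262), no filter on dim probes (0.434), an unpaired t test (0.236) and without each mouse other than WT 4 and KO 1 (up to 0.367). Other lipoprotein genes called higher, 2 as reported, were 1 with no filter on dim probes, with an unpaired t test and with an adjusted p under 0.05 (*Pltp* each time), 4 with no minimum fold (also *Lpl* and *Pdzk1*, named after their values were seen) and 7 at an unadjusted p under 0.2. They were 3 with normexp (also *Cd36*) and with all probes per gene averaged (also *Lpl*). They were 1 to 3 without one mouse each, and 1 without WT 1, WT 2, WT 3, KO 1 or KO 2. Deviations of same-numbered mice correlated at -0.109 to 0.331. The same-numbered WT mouse was the closest for KO 1 and KO 4, but not for KO 2 and KO 3. So few mice cannot show whether the replicate numbers pair them. With a replicate block, 1 member was called higher and 0 lower, and over all probes 327 were higher and 265 lower in place of 273 and 211. The cause of these shifts was not tested. Small differences are limited by the number of mice.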
